A study of Mus musculus with 10 samples.

Results

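Peroxisomes are organelles that shorten very long and branched fatty acids and bile acid precursors, break down hydrogen peroxide and carry out the first steps of ether lipid synthesis. Their membrane and matrix proteins are placed there by peroxins, the products of the Pex genes, and liver is among the tissues richest in them. Ether lipids include the plasmalogens, many of which carry an ethanolamine head group, and Etnppl encodes the phospho-lyase that breaks down phosphoethanolamine. Transcripts of 39 genes listed together for this organelle were examined, of 47702 genes in the deposited table. The list includes Abcd4, which acts in lysosomes. They were chosen by symbol and comprised 13 peroxins and 26 genes for transporters, oxidation enzymes and ether lipid synthesis. Every symbol matched 1 row.

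Liver poly-A RNA was sequenced from female mice with a whole-body Etnppl knockout (KO) and from wild-type (WT) females, all kept on a chow diet for 20 weeks. There were 5 libraries of each genotype. Whether every library came from its own animal is not in the labels, nor are the deleted exons or the strain, and p-values cover the spread among these libraries, which may be technical. Values are FPKM, fragment counts scaled by transcript length and by library size, which allow levels of different genes to be compared per length. In bulk liver RNA, fewer cells of a type and less RNA per cell cannot be told apart.

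Etnppl was at 17.72 to 26.43 FPKM in KO livers and at 43.32 to 108.39 FPKM in WT livers, which differed by -1.49 in log2 units (SE 0.23; adjusted p of 0.005 by limma). The KO libraries thus lay below the WT libraries in the targeted gene but were not at 0. Read totals were not used here. The spacing of values of low genes put depth, in relative terms, at 0.89 to 1.07 in KO and 1.0 to 1.12 in WT. All 6 hepatocyte markers were detected, and their summed level was 59480 to 65240 FPKM in KO and 55000 to 60150 FPKM in WT. Among these, Cps1 was higher in KO (log2 difference 0.58, adjusted p by limma = 0.00338), beside 3.98% of all genes tested. The other 5 did not pass. Log2 differences were above 0 in 4 of the 6 and below 0 in 2, Hnf4a (-0.30) and Serpina1c (-0.22). Alb, at a mean of 43770 FPKM in KO and 41140 FPKM in WT, made up most of these sums. Of 8 markers of Kupffer cells, the liver macrophages, Clec4f, Vsig4, Csf1r and C1qa were lower in KO, beside 4.56% of all genes tested, and Marco differed the other way without passing (0.75, SE 0.33, adjusted p = 0.191). Kupffer sums were 123.7 to 174.9 FPKM in KO and 179.9 to 211.2 FPKM in WT. Reln, 1 of 6 stellate markers tested, and Sox9, 1 of 4 bile duct markers tested, were also lower in KO, beside 4.56% of all genes. Sox9 was low, at a mean of 0.504 FPKM in KO and 0.964 FPKM in WT. The bile duct markers Krt19 (0.10) and Epcam (0.03) and the stellate marker Pdgfrb (0.02) differed the other way without passing. No endothelial or lymphocyte marker passed. Sums in KO and WT were 112.8 to 133.4 and 130.6 to 136.9 FPKM for endothelial, 122.5 to 138.4 and 130.2 to 167.7 FPKM for stellate, 13.48 to 18.68 and 14.92 to 20.37 FPKM for bile duct, and 3.63 to 6.31 and 4.77 to 5.93 FPKM for lymphocyte markers, 6 genes each, and none of these markers was at 0 in all libraries. The part of these shifts in the results below was not tested.

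Transcript levels of the 39 genes spanned several orders of magnitude (plot of levels by library). Ehhadh, the multifunctional enzyme that carries out the hydratase and dehydrogenase steps of inducible peroxisomal beta-oxidation, had the highest mean over all 10 libraries, 1594 FPKM, and averaged 1934 FPKM in KO and 1253 FPKM in WT. In WT alone it stood below Scp2 (1553 FPKM) and Acaa1b (1457 FPKM). Over all libraries Acaa1b, a 3-ketoacyl-CoA thiolase, followed at 1467 FPKM, Scp2, which encodes a branched-chain thiolase and a lipid carrier, at 1424 FPKM, Cat, the catalase that breaks down hydrogen peroxide, at 1192 FPKM, and Phyh, the phytanoyl-CoA hydroxylase, at 1114 FPKM. Peroxins ranged from 4.53 FPKM for Pex10 to 109 FPKM for Pex19. Of the 3 ether lipid genes, Gnpat averaged 26.4 FPKM, Agps 2.78 FPKM and Far1 0.813 FPKM. Dao, a D-amino acid oxidase, was at 0.04 FPKM in KO 1, 0.07 FPKM in WT 1 and listed at 0 in the other 8 libraries. It was the only one of the 39 genes below the mean of 0.5 FPKM required for the test, which left 38 genes.

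**Figure D1:**
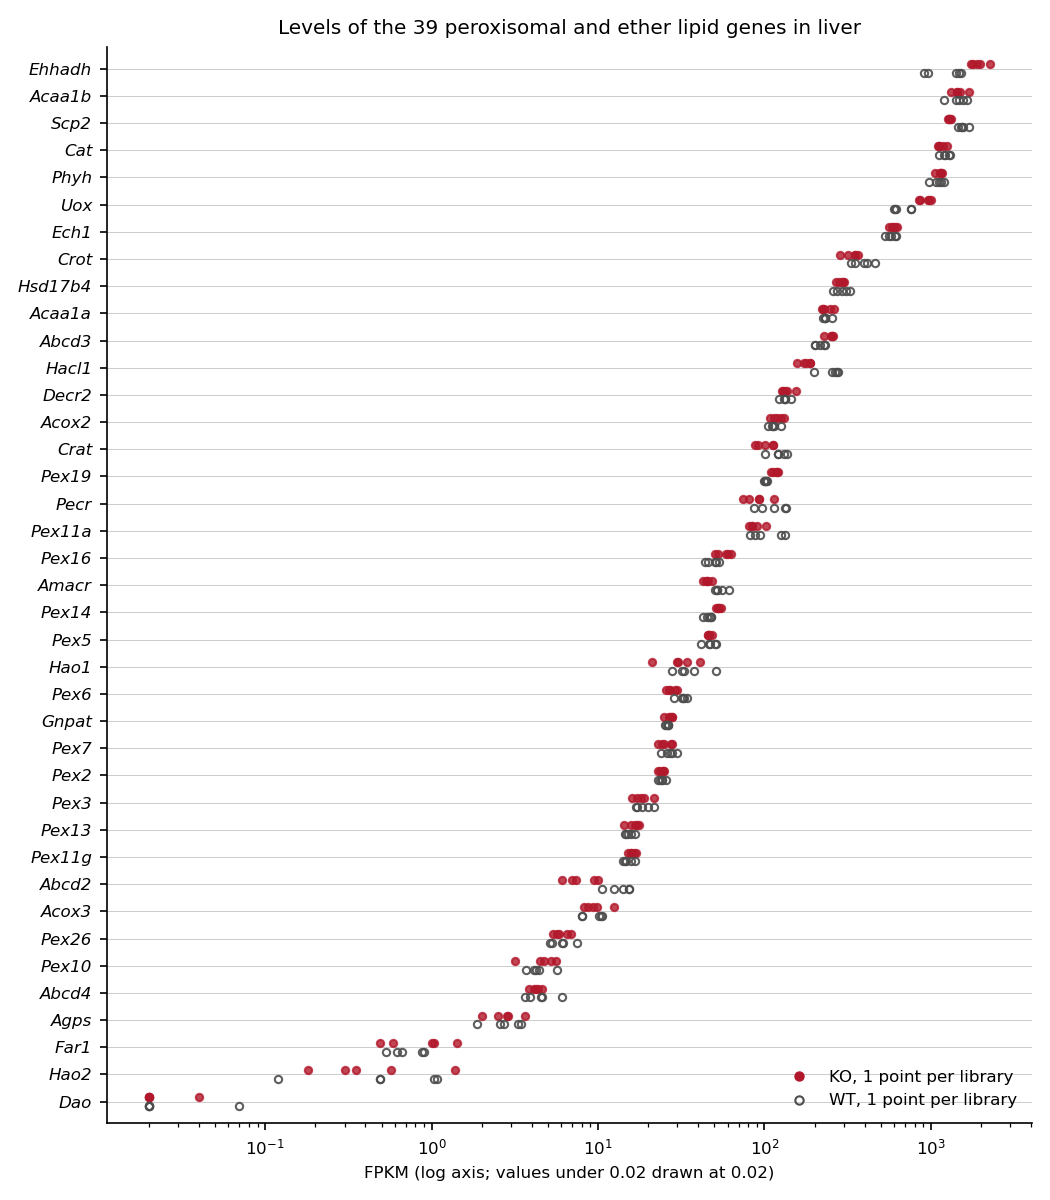
FPKM (horizontal log axis) of the 39 genes in each KO library (filled red points) and each WT library (open grey points), ordered by mean level. Ehhadh is at the top, at 1744 to 2265 FPKM in KO and 906 to 1520 FPKM in WT, and Dao, with values under 0.02 FPKM drawn at 0.02, at the bottom.

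Of the 38 genes tested, 5 were higher in KO, 4 were lower and 29 did not pass the test (limma on log2(FPKM + 0.5), Benjamini-Hochberg adjusted p under 0.05 over all 12247 genes tested). Uox, Ehhadh, Abcd3, Pex14 and Pex19 rose, and Abcd2, Hacl1, Scp2 and Amacr fell. Among all genes tested, 8.54% were called, 3.98% as higher and 4.56% as lower in KO, against 23.7% of the 38. The share of calls was larger among abundant genes: it was 18.2% of the 1327 genes at or above 51.55 FPKM, the median level of the 38. The 23.7% also covers the members below that level, so the 2 shares are not of like sets. By mean level, 2 of 5 members at or above 1000 FPKM were called and 4 of 12 from 100 to 1000 FPKM. From 10 to 100 FPKM 3 of 14 were called, and none of 5 from 1 to 10 FPKM or of 3 below 1 FPKM, where Dao was not tested. The share of all genes called within each range was not computed, so these counts cannot be read as particular to the members. The median log2 difference of the 38 genes was 0.003, with 20 above and 18 below 0, beside a median of -0.02 for all genes tested. The KO and WT libraries did not overlap in 8 of the 38 genes (21.1%), beside 8.87% of all genes tested, and these 8 were the called genes other than Abcd3. An unadjusted p under 0.05 was found for 13 of the 38 (34.2%), beside 24.5% of all genes tested. The 5 rises became 2 without KO 2 or WT 1 and 3 without KO 3, KO 4 or KO 5.

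**Figure D2:**
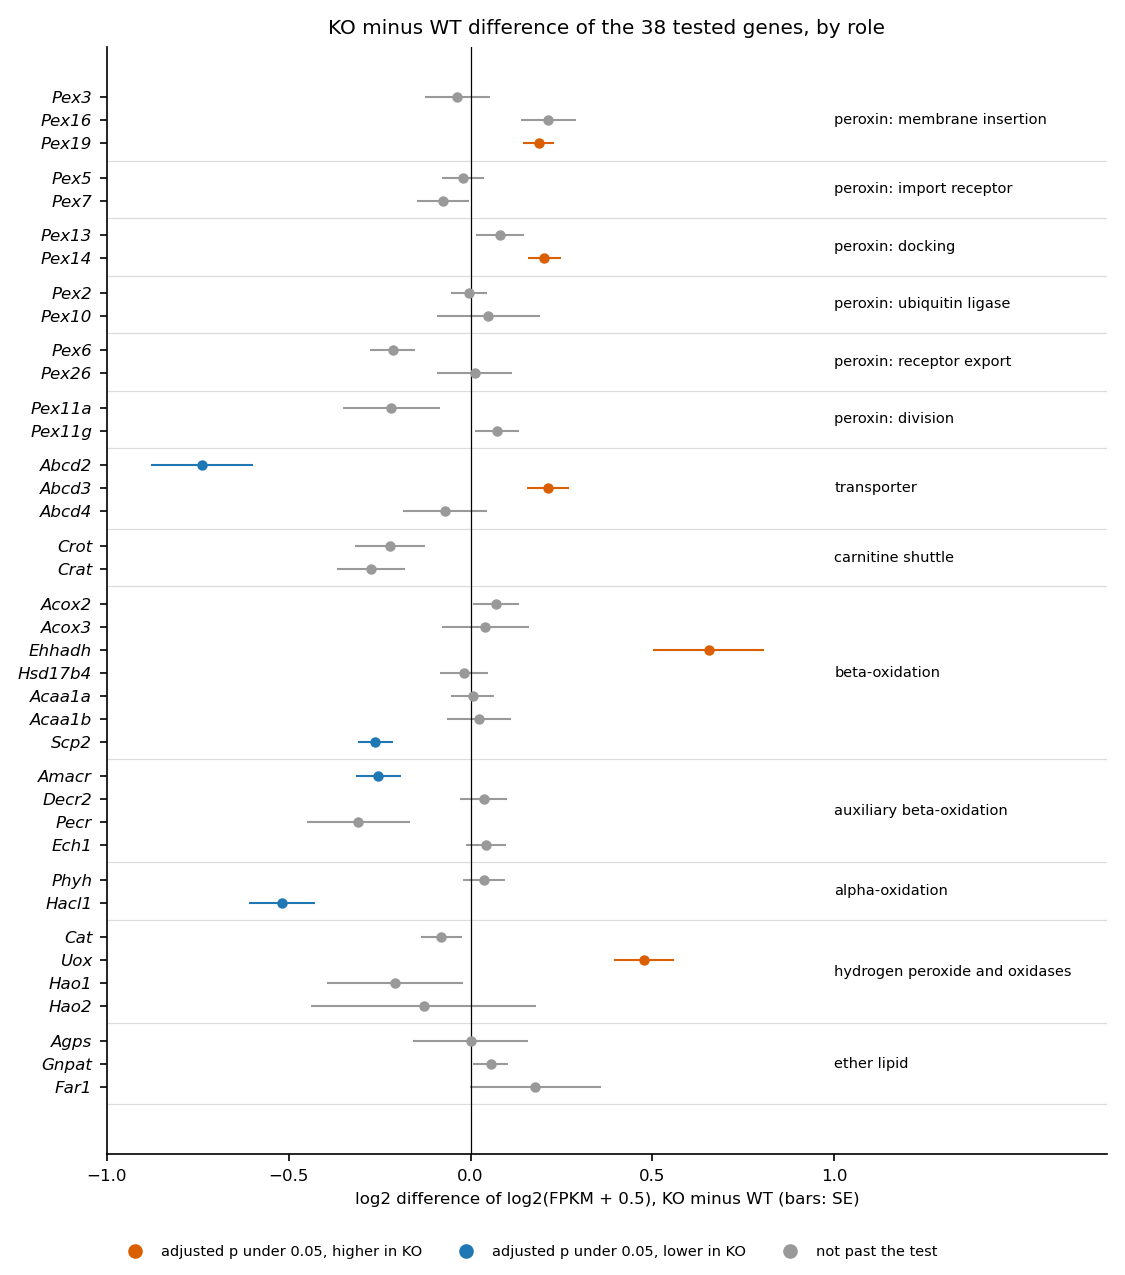
Difference of log2(FPKM + 0.5), KO minus WT (horizontal axis), with its standard error for the 38 tested genes, grouped by role. The 5 genes higher in KO (orange) and the 4 lower in KO (blue) are spread over 7 roles, and both directions occur within the transporters and within beta-oxidation.

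Peroxins place the other proteins. Pex3, Pex16 and Pex19 insert membrane proteins, Pex5 and Pex7 are the receptors for matrix enzymes, Pex13 and Pex14 dock these receptors, Pex2 and Pex10 belong to the ubiquitin ligase of the import machinery, Pex6 and its membrane anchor Pex26 return the receptors to the cytosol, and Pex11a and Pex11g act in division. Of the 13 peroxins 2 rose, none fell and 11 did not pass (limma). The share called was 15.4%, beside 8.54% of all genes tested, and 4 peroxins (30.8%) had an unadjusted p under 0.05, near the 24.5% of all genes. Pex14 was at 52.7, 55.0, 53.6, 51.4 and 52.3 FPKM in KO 1 to KO 5, and at 45.3, 46.7, 42.9, 47.6 and 47.5 FPKM in WT 1 to WT 5. Every KO library thus exceeded every WT library, by a small margin relative to the level. The log2 difference was 0.20 (SE 0.05, adjusted p by limma = 0.0219), and the KO mean was 1.15 times the WT mean. Pex19 was at 118, 117, 121, 112 and 109.6 FPKM in KO 1 to KO 5, against 100.2, 101, 99.8, 104 and 102 FPKM in WT 1 to WT 5. The WT libraries lay within a narrow band, with a coefficient of variation of 1.72%, and the KO libraries above it, at 3.92%. The log2 difference of Pex19 was 0.19 (SE 0.04, adjusted p by limma = 0.0228). Both calls were lost without KO 2 or without WT 1, with adjusted p up to 0.0575 for Pex14 and 0.0577 for Pex19.

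The other 11 peroxins did not pass the test. Pex16 had a log2 difference of 0.21 (SE 0.08, adjusted p by limma = 0.105), with 50.6 to 63.1 FPKM in KO and 44.2 to 53.6 FPKM in WT. Pex6, one of the ATPases that pull receptors out of the membrane, had -0.21 (SE 0.06, adjusted p = 0.0552), with 25.5 to 29.8 FPKM in KO and 28.6 to 34.2 FPKM in WT, overlapping only through KO 3, KO 5 and WT 3. It passed at an adjusted p of 0.0256 without WT 3 and of 0.0487 without KO 3, and also when genes averaging under 5 FPKM were left out (0.0424) and with library weights (0.0357). Pex11a, which responds to peroxisome proliferators, was at 80.4 to 102.8 FPKM in KO and 81.9 to 133.5 FPKM in WT, where WT 4 and WT 5 stood highest (log2 difference -0.22, SE 0.13). Pex5, the receptor for most matrix enzymes, had a log2 difference of -0.02 (SE 0.06), and Pex7, which imports a smaller group that includes Phyh and Agps, of -0.08 (SE 0.07). Log2 differences of the remaining 6, Pex2, Pex3, Pex10, Pex11g, Pex13 and Pex26, lay between -0.04 and 0.08.

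The transporters of the ABCD family carry acyl-CoA into peroxisomes, except Abcd4, which acts in lysosomal cobalamin transport. Of the 3, Abcd2 fell, Abcd3 rose and Abcd4 did not pass the test, where 8.54% of all genes tested were called. Abcd2, a carrier of very long and unsaturated acyl-CoA, was at 7.4, 6.11, 6.96, 9.45 and 9.97 FPKM in KO 1 to KO 5, against 15.28, 12.47, 10.54, 14.14 and 15.37 FPKM in WT 1 to WT 5. Every KO library was below every WT library, with KO 5 and WT 3 closest. It had the largest change of the 38 genes, with a log2 difference of -0.74 (SE 0.14, adjusted p by limma = 0.0103) and a KO mean of 0.588 times the WT mean. Abcd3, the most abundant of the 3 and a carrier of branched and long dicarboxylic acyl-CoA and bile acid precursors, was at 228, 255.5, 251, 259 and 253 FPKM in KO 1 to KO 5, against 216, 200.5, 200.5, 228 and 231 FPKM in WT 1 to WT 5. Both groups overlapped, since KO 1 lay among the WT libraries. The log2 difference was 0.21 (SE 0.06, adjusted p by limma = 0.043). That call was lost when any 1 of 7 libraries was left out (KO 2, KO 3, KO 4, KO 5, WT 1, WT 2, WT 3; adjusted p up to 0.0929) and with no filter on low values (0.0703). Abcd3 lies on chromosome 3 (mm10, 121758774 to 121815302, minus strand), 8.8 Mb from Etnppl, and so near the targeted locus the flanking DNA and the loss of Etnppl are effects that cannot be told apart. Within a library, the ratio of Abcd3 to Abcd2 FPKM was 25.4 to 41.8 in KO and 14.1 to 19.0 in WT, a pair chosen after the values were seen and given with no test. Abcd4 was at 3.87 to 4.62 FPKM in KO and 3.63 to 6.06 FPKM in WT (log2 difference -0.07, SE 0.12).

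**Figure D3:**
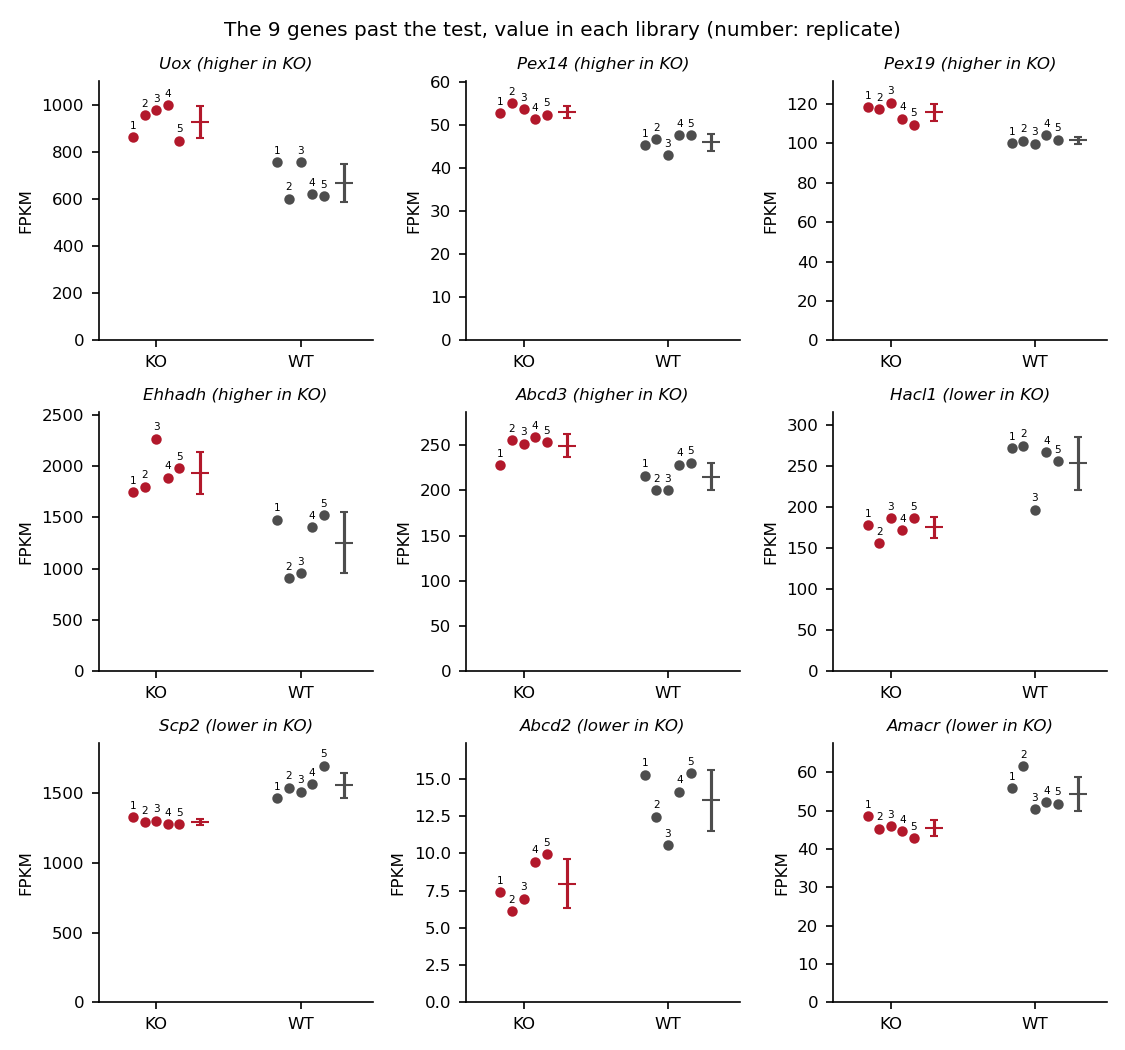
FPKM (vertical axes from 0) of the 9 genes that passed the test in each KO and each WT library, with the replicate number above each point and mean ± SD at its right. In each panel but that of Abcd3, where KO 1 lies among the WT libraries, the KO and WT points do not overlap. In Abcd2, Hacl1 and Amacr the lowest WT library is WT 3.

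Beta-oxidation in peroxisomes runs from an acyl-CoA oxidase through a bifunctional enzyme to a thiolase. Of the 7 genes of these steps, Ehhadh rose, Scp2 fell and 5 did not pass the test (median log2 difference 0.02). Calls made up 8.54% of all genes tested. Ehhadh was at 1744, 1798, 2265, 1884 and 1979 FPKM in KO 1 to KO 5, and at 1478, 906, 956, 1407 and 1519.8 FPKM in WT 1 to WT 5. The WT libraries split into WT 2 and WT 3, under 1000 FPKM, and the other 3, closer to the lowest KO library. Their log2 difference, 0.65 (SE 0.15, adjusted p by limma = 0.0264), was the largest rise of the 38, and the KO mean was 1.54 times the WT mean. That call was lost when KO 3, KO 4 or KO 5 was left out (adjusted p at most 0.0595) and with no filter on low values (0.0504). Hsd17b4, the other bifunctional enzyme, which handles branched chains and bile acid precursors, did not pass the test, with 270.4 to 301 FPKM in KO and 259 to 328 FPKM in WT (log2 difference -0.02, SE 0.07). The ratio of Ehhadh to Hsd17b4 FPKM, again picked after seeing the values and not tested, was 6.45, 6.03, 7.52, 6.72 and 6.76 in KO 1 to KO 5 and 5.03, 3.31, 3.69, 4.54 and 4.63 in WT 1 to WT 5.

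Scp2 was at 1328, 1290.5, 1302, 1275 and 1277 FPKM in KO 1 to KO 5, against 1460.2, 1537, 1509.6, 1564 and 1695 FPKM in WT 1 to WT 5. The KO libraries were almost level, with a coefficient of variation of 1.68% against 5.68% in WT, and all lay below the WT libraries. Scp2 thus had a log2 difference of -0.26 (SE 0.05, adjusted p by limma = 0.00885), called whichever library was left out. Values per gene do not separate the thiolase from the lipid carrier that the gene also encodes. Of the 50-base windows of its transcripts, 29.7% also occur in the pseudogene Scp2-ps2, which was at 0.48 to 3.4 FPKM. The straight-chain thiolases did not pass the test. Acaa1a had a log2 difference of 0.01 (SE 0.06) and Acaa1b of 0.02 (SE 0.09), and 30.5% of the windows of Acaa1b occur in Acaa1a too, so the split of reads between them is uncertain. The branched-chain oxidases Acox2 (log2 difference 0.07, SE 0.06) and Acox3 (0.04, SE 0.12) did not pass either.

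Auxiliary enzymes prepare unusual substrates for this pathway. Amacr, the racemase that turns branched-chain and bile acid intermediates into the form the oxidases accept, was at 48.6, 45.4, 46.0, 44.6 and 42.8 FPKM in KO 1 to KO 5, against 56.0, 61.6, 50.4, 52.2 and 51.9 FPKM in WT 1 to WT 5. Every KO library was below every WT library, with KO 1 and WT 3 closest. The log2 difference was -0.25 (SE 0.06, adjusted p by limma = 0.0297), a call lost without KO 2, KO 4, KO 5 or WT 1 (p after adjustment at most 0.0722) and with no filter on low values (0.053). Pecr, the peroxisomal trans-2-enoyl-CoA reductase, varied more, at 74.2 to 113.9 FPKM in KO and 87.0 to 134 FPKM in WT, and did not pass (log2 difference -0.31, SE 0.14, adjusted p = 0.208). Decr2 and Ech1, which process unsaturated chains, had log2 differences of 0.04 each (SE 0.06 and 0.05). The acyl groups leave as carnitine esters made by Crot and Crat, and neither passed. Crat had a log2 difference of -0.27 (SE 0.09, adjusted p = 0.0951), and passed without WT 3 (adjusted p = 0.035), and Crot of -0.22 (SE 0.10, adjusted p = 0.184).

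Alpha-oxidation removes the first carbon of phytanic acid, whose methyl branch blocks beta-oxidation. Of its 2 genes, Hacl1, the lyase that splits the 2-hydroxyacyl-CoA, fell and Phyh, the hydroxylase of the step before, did not pass the test. Among all genes tested, 8.54% were called. Hacl1 was at 178, 156, 187, 172 and 187 FPKM in KO 1 to KO 5, against 272, 275, 197, 267 and 256 FPKM in WT 1 to WT 5. The KO libraries were all below the WT libraries, and WT 3 lay closer to the KO libraries than to the other 4 WT libraries. This gave a log2 difference of -0.52 (SE 0.09, adjusted p by limma = 0.00712), and -0.61 without WT 3, and the KO mean was 0.694 times the WT mean. It was called whichever library was left out. In the GENCODE M21 annotation, 31.1% of the exonic bases of Hacl1 overlap Gm49387 on the same strand, whose level was not analysed here. Phyh was at 1061 to 1164 FPKM in KO and 976 to 1193 FPKM in WT (log2 difference 0.04, SE 0.06).

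Oxidases in the matrix make hydrogen peroxide, which catalase breaks down. Uox, the urate oxidase that mice use to convert uric acid on the way to allantoin, was at 865, 958, 979, 998 and 849 FPKM in KO 1 to KO 5, against 758, 603, 759, 621 and 613 FPKM in WT 1 to WT 5. The lowest KO library, KO 5, lay above the highest WT libraries, WT 1 and WT 3. KO exceeded WT by a log2 difference of 0.48 (SE 0.08, adjusted p by limma = 0.00693), with a KO mean 1.39 times the WT mean. It had the smallest p of the 38 genes and was called whichever library was left out. Uox also lies on chromosome 3 (mm10, 146570426 to 146632305, plus strand), 15.9 Mb from Etnppl. How far DNA that flanks the targeted locus differs between the genotypes is not known here. For Uox too, its effect and that of the loss of Etnppl cannot be told apart. Cat was at 1105 to 1256 FPKM in KO and 1127 to 1308 FPKM in WT and did not pass (log2 difference -0.08, SE 0.06). Hao1, the glycolate oxidase, had a log2 difference of -0.21 (SE 0.19), with coefficients of variation of 23.3% in KO and 25.1% in WT. Hao2, another 2-hydroxy acid oxidase, was under 1.4 FPKM in every library, with a log2 difference of -0.13 (SE 0.31).

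None of the 3 genes of ether lipid synthesis passed the test (limma), and none had an unadjusted p under 0.05. Gnpat, which acylates dihydroxyacetone phosphate in the first step, was at 24.8 to 28.0 FPKM in KO and 25.2 to 26.3 FPKM in WT (log2 difference 0.06, SE 0.05). Agps, which swaps the acyl chain for a fatty alcohol, was at 2.02 to 3.63 FPKM in KO and 1.88 to 3.44 FPKM in WT, with a log2 difference of 0.0005 (SE 0.16). Far1, the reductase that supplies the fatty alcohol, was at 0.49 to 1.42 FPKM in KO and 0.53 to 0.9 FPKM in WT (log2 difference 0.18, SE 0.18). The standard errors of Agps and Far1 were close in size to the log2 differences of Pex14, Pex19 and Abcd3.

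**Figure D4:**
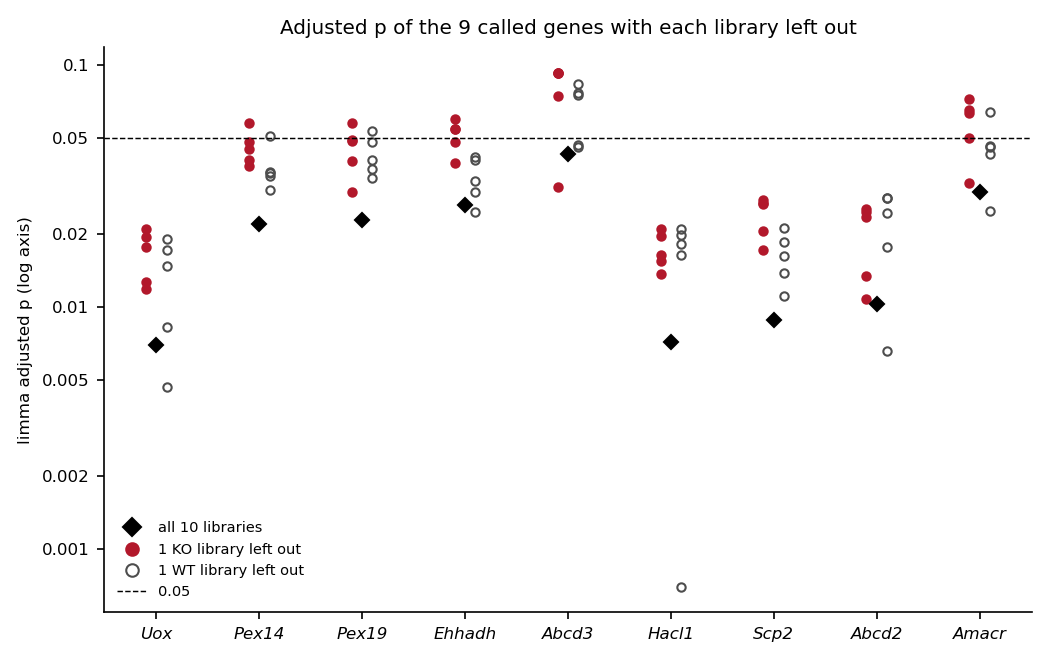
Adjusted p (vertical log axis) of the 9 called genes with all 10 libraries (black diamonds) and with 1 KO library (filled red) or 1 WT library (open grey) left out. Uox, Hacl1, Scp2 and Abcd2 stay under the dashed line at 0.05 in all 10 of these fits, and Abcd3 is above it in 7.

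Promoters were compared because several of these genes are textbook targets of PPARA, a fatty acid receptor that binds as a dimer with Rxra to a repeat of the core motif AGGTCA spaced by 1 base. RefSeq windows of 300 bases, from 250 before to 50 after a start site (GRCm38.p6), were found for 32 of the 39 genes, 39 windows in all. The repeat, searched on both strands, was in none of the 39 windows and in 0.0396% of all 32851 windows. A looser form, 2 copies of AGGNCA spaced by 1 base, was in none of the 39 and in 0.381% of all windows. Both forms are so rare that none would be found in most sets of 39 windows, so their absence here is not informative. The single core motif on either strand was in 5 of the 39 windows (Cat, Dao, Pex11g, Phyh and Scp2) and in 16.3% of all. Such a window is short and says nothing of sites elsewhere. Windows are printed for the 2 genes that rose most and for 2 that fell, with any core motif in capitals and the rest in lower case. Those of Uox, Hacl1 and Scp2 lie inside the GENCODE M21 span of the gene, so the RefSeq and GENCODE starts differ there.
Ehhadh, chr16:21787785-21788084, minus strand: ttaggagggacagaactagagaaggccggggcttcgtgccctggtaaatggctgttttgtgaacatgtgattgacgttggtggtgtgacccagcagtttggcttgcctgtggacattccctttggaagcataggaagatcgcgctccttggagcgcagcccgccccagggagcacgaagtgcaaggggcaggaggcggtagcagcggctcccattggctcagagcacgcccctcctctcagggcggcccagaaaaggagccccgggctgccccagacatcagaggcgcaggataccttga
Uox, chr3:146596899-146597198, plus strand: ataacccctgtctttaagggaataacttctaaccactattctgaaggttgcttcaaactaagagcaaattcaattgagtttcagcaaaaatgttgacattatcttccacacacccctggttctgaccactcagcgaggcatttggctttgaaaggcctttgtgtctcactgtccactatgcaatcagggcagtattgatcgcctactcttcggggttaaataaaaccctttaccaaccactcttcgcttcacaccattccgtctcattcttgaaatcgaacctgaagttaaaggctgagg
Hacl1, chr14:31640916-31641215, minus strand: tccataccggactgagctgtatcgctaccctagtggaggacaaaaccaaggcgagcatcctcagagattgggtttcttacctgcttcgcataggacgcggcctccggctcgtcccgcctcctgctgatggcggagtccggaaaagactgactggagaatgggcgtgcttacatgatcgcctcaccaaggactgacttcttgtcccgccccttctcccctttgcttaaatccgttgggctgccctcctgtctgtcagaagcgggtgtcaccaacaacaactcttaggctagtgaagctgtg
Scp2, chr4:108118498-108118797, minus strand: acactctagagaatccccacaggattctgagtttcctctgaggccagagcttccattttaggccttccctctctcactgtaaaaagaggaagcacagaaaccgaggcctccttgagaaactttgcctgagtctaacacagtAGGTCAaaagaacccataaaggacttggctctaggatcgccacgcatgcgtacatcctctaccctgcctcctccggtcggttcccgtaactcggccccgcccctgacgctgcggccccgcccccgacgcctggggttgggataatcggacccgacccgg
Scp2 holds 1 core motif, and the other three windows hold none. Uox had the lowest share of G and C of these, 43.0%, with 60.7% in Ehhadh, 56.3% in Hacl1 and 57.3% in Scp2, beside a median of 57.3% over the 39 windows and 52.7% over all.

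Other genes of the organelle and of neighbouring pathways were counted from lists chosen with earlier results of these data known. Of 39 other peroxisomal genes tested, 3 rose, 2 fell and 34 did not pass (median log2 difference 0.04). Calls thus made up 12.8%, beside 8.54% of all genes tested and 18.2% of the 1327 genes at or above 51.55 FPKM. Pipox, which oxidises pipecolic acid and sarcosine, fell to 77.9 ± 5.3 FPKM in KO, against 112 ± 7.96 FPKM in WT (SD, n = 5 each; log2 difference -0.52, adjusted p by limma = 0.00121). Nudt7, a hydrolase of coenzyme A, rose to 52.9 ± 5.46 FPKM in KO, against 38.2 ± 1.67 FPKM in WT (log2 difference 0.46, adjusted p by limma = 0.00377). Acot12, an acetyl-CoA thioesterase, rose by 0.24 on the log2 scale (adjusted p by limma = 0.00933), and Dhrs4, a carbonyl reductase, fell by 0.34 (adjusted p = 0.0222). Dhrs4 lost its call without KO 4 or KO 5 (adjusted p up to 0.0555), so that 1 gene had fallen, and without WT 3 the count of risen genes was 5.

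Of 7 genes that act later in plasmalogen synthesis or in ether lipid breakdown, Pla2g6, a calcium-independent phospholipase, rose and 6 did not pass. That 1 call made up 14.3% of the list, beside 8.54% of all genes tested. Pla2g6 was at 18.7 ± 1.66 FPKM in KO and 13.4 ± 1.96 FPKM in WT (SD, n = 5 each; log2 difference 0.48, adjusted p by limma = 0.0163), and without WT 2 the count was 2. Tmem86b, which cleaves lysoplasmalogen, had a log2 difference of 0.45 (adjusted p = 0.104), Cept1, a choline and ethanolamine phosphotransferase, of -0.11, and Tmem189, the desaturase that makes the vinyl ether bond, of 0.28 (adjusted p = 0.335).

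Of 17 other PPARA targets, 1 rose, none fell and 16 did not pass (limma), and the median log2 difference was 0.0005. The share called was 5.88%, beside 8.54% of all genes tested, and 3 targets (17.6%) had an unadjusted p under 0.05, beside 24.5% of all genes. Cd36, a fatty acid uptake protein, rose to 126 ± 12.2 FPKM in KO, against 84.1 ± 11.6 FPKM in WT (SD, n = 5 each; log2 difference 0.58, adjusted p by limma = 0.00612). Cyp4a31, a fatty acid hydroxylase, had a log2 difference of 0.69 (adjusted p = 0.0586), Plin2, a lipid droplet protein, of 0.34 (adjusted p = 0.173), and Pdk4, a kinase that restrains pyruvate oxidation, of -0.63 (SE 0.35). Cyp4a31 passed, for a count of 2, without WT 4 (0.0392), when genes averaging under 5 FPKM were left out (0.0478) and without the robust option (0.048). After quantile normalization both Cyp4a31 (0.0432) and Plin2 (0.0468) passed, for a count of 3. Of 6 regulators of the pathway none passed (limma), and 1 of them (16.7%) had an unadjusted p under 0.05, beside 24.5% of all genes tested. The log2 difference was -0.16 for Rxra, 0.80 for the coactivator Ppargc1a (SE 0.43), -0.12 for the corepressor Ncor1 and -0.20 for Ppargc1b.

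Of 16 genes of mitochondrial beta-oxidation, 1 fell, none rose and 15 did not pass (median log2 difference -0.04). Calls thus made up 6.25%, beside 8.54% of all genes tested. Acadm, the medium-chain acyl-CoA dehydrogenase, was at 602 ± 20.5 FPKM in KO and 714 ± 55.5 FPKM in WT (SD, n = 5 each; log2 difference -0.24, adjusted p by limma = 0.0276). That call was lost when any 1 of 7 libraries was left out (KO 1, KO 2, KO 4, KO 5, WT 1, WT 4, WT 5; adjusted p up to 0.0684), which left a count of 0, and after quantile normalization (0.116). The thiolase Acaa2 had a log2 difference of -0.22 (adjusted p = 0.086), and the dehydrogenases Acadl and Acads of 0.14 and -0.08.

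**Figure D5:**
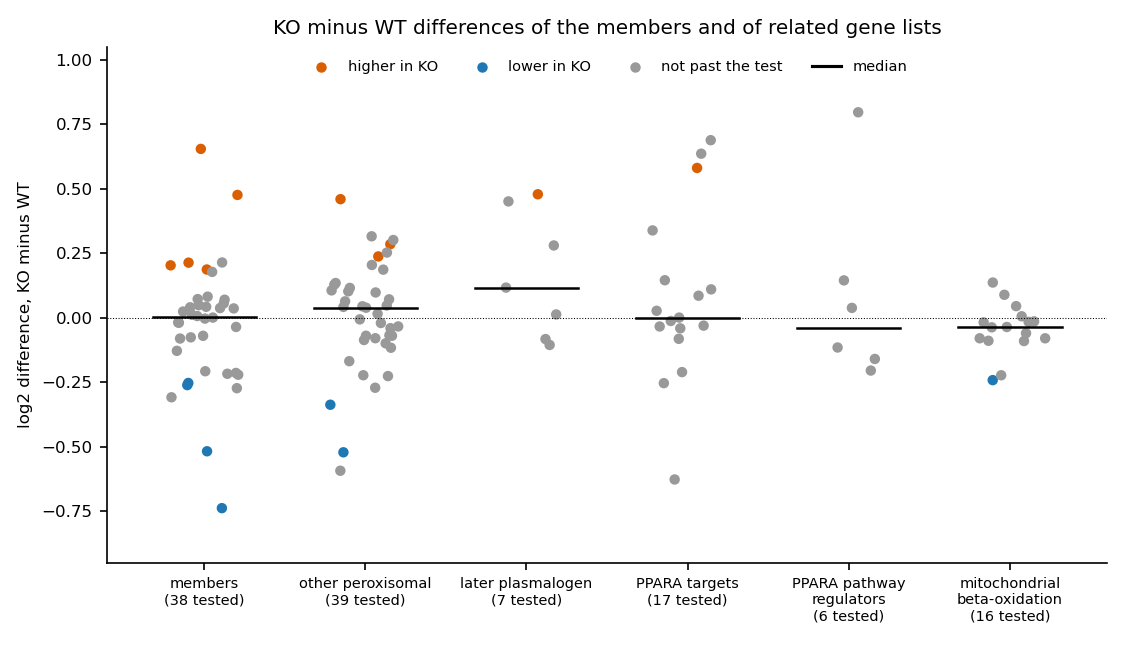
Log2 difference, KO minus WT (vertical axis), of each tested gene in the 38 genes described here (members, left) and 5 related lists, with the median as a black bar. Medians lie between -0.04 and 0.12, and genes higher (orange) and lower (blue) in KO occur together among the members and among the other peroxisomal genes.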

How the data were processed

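Liver libraries of female mice, 5 KO and 5 WT libraries grouped by genotype from the labels, were compared. The authors deposited FPKM per gene and library. Per the submitters' processing notes, which give no roles, the tools were STAR, RSEM, DESeq, DESeq2 and R 4.0.2, and the build was mm10. No source used here gives the strand setting, so genes that overlap can share reads. A gene's FPKM depends on the rest of its library.

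The genes and related lists were chosen with earlier results of these data known. All 39 genes are described, and per related list the 4 with the smallest p and any called gene where 6 or fewer were called. 1 gene that this rule gives is not reported here. A pair of list entries were matched by an older symbol. RefSeq protein sequences were not used here, so a planned search for targeting signals was not run.

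FPKM, as deposited, was taken as log2(FPKM + 0.5), which understates fold changes of low genes. Genes averaging 0.5 FPKM or more entered two-sided tests in limma 3.58.1 (run in R 4.3.3), with genotype in the model and trended, robust eBayes. Count models were not used, since these values are normalized. Exact permutation tests used the 252 arrangements of libraries, whose smallest p is 0.0079. No pair of libraries held identical values, and Spearman correlations were 0.977 to 0.988 within and 0.974 to 0.983 between genotypes. Positions came from GENCODE M21, on the assembly of mm10. Alternatives were other pseudocounts, filters, scalings and weights, non-robust fits, the replicate number as a block and each library left out. Python 3.11.15 and matplotlib 3.10.9 drew the figures.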

Additional observations from a re-analysis of the deposited data

Results flagged for a closer look

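For the 38 tested genes and Etnppl, the highest and lowest library of each genotype were compared with their neighbours. A library stood apart in 3 of 78 gene and genotype groups, when about 1 in 20, or 3.9, would do so by chance. Hacl1 was at 197.22 FPKM in WT 3, against 256.05 to 275.05 FPKM in the other WT libraries. Abcd3 was at 227.89 FPKM in KO 1, against 251.49 to 258.79 FPKM in the other KO libraries. Acaa1a was at 255.46 FPKM in WT 2, against 225.22 to 232.73 FPKM in the other WT libraries.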

How the results depend on the processing

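Uox, Hacl1, Scp2 and Abcd2 kept their call in every fit of limma that was run. With no filter on low values the 5 genes higher in KO became 3, and genes called over the whole table became 294 higher and 370 lower. Libraries of the same replicate number had correlations of -0.207 to 0.208 in their deviations, which do not settle whether the number pairs the samples. KO 1 and KO 5 were most like the WT library of their own number, and KO 2, KO 3 and KO 4 were not. With the replicate number as a block, the calls of Abcd3, Amacr, Ehhadh, Pex14 and Pex19 were lost, 1 gene of the 38 was higher and the whole table held 230 higher and 321 lower genes, with 1 lower among the other peroxisomal genes and 0 called in the later plasmalogen and the mitochondrial list. Other peroxisomal genes higher in KO became 5 after median-of-ratios and 5 after upper-quartile scaling. PPARA targets higher in KO became 2 when genes averaging under 5 FPKM were left out, 2 without the robust option and 3 after quantile normalization, where the mitochondrial list had 0.

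Without 1 library, which leaves fewer samples, 2 to 5 of the 38 genes were higher in KO and 3 to 6 lower (6 without WT 3). Among all genes tested, higher ones numbered 258 to 454 and lower ones 316 to 541. Higher genes numbered 263 without KO 2, 265 without KO 4, 258 without KO 5, 290 without WT 1, 308 without WT 4 and 266 without WT 5. Lower genes numbered 342 without KO 2, 361 without KO 4, 316 without KO 5, 366 without WT 1 and 325 without WT 5. Of other peroxisomal genes 2 to 5 were higher and 1 to 3 lower, of the later plasmalogen list 1 to 2 higher, of PPARA targets 1 to 2 higher, and of the mitochondrial list 0 to 1 lower.

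Some log2 differences near 0, none of them called, changed sign. Under other settings these were Agps (-0.000223 at a pseudocount of 1, -0.0496 with library weights), Pex2 (0.0118 after median-of-ratios, 0.0112 after upper-quartile and 0.0181 after quantile scaling), Pex5 (0.00621) and Hsd17b4 (0.0178) after quantile normalization, and Pex26 (-0.0142) and Acaa1b (-0.00604) with library weights. Without 1 library the ranges were -0.0221 to 0.0178 for Pex2, -0.0955 to 0.0146 for Pex3, -0.0638 to 0.00863 for Pex5, -0.0189 to 0.163 for Pex10, -0.0382 to 0.0841 for Pex26, -0.0506 to 0.0926 for Acox3, -0.0616 to 0.0240 for Hsd17b4, -0.0311 to 0.0362 for Acaa1a, -0.0427 to 0.0699 for Acaa1b, -0.137 to 0.0295 for Abcd4, -0.00526 to 0.0672 for Phyh, -0.363 to 0.00692 for Hao2, -0.110 to 0.0907 for Agps and -0.0114 to 0.0689 for Decr2. The depth of each library is known only in relative terms, which limits what can be said of Far1, Hao2 and Dao.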
